A study of Mus musculus with 16 samples.

Results

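The miR-106b~25 cluster comprises 3 microRNA hairpins, Mir106b, Mir93 and Mir25, that lie close together within the gene Mcm7. It is described here through 4 mature microRNAs, chosen by their identifiers: miR-106b-5p (MIMAT0000386), miR-106b-3p (MIMAT0004582), miR-93-5p (MIMAT0000540) and miR-25-3p (MIMAT0000652). These are 4 of the 853 microRNAs in the table of raw counts, and all 4 were among the 255 that passed the filter on low counts and were tested.

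The counts come from 16 small RNA libraries of mouse splenic cDC1s (type 1 conventional dendritic cells), which take up dead cells and present their antigens to cytotoxic T cells. Each of 4 genotype groups of C57BL6 mice had 4 libraries. The groups were an Xbp1 knockout (Xbp1-deficient), a combined Xbp1 and Ire1 knockout (compound-deficient), and a wild type for each of these 2 lines (Xbp1-line wild type and compound-line wild type). The study asked what Xbp1 and Ire1a do in these cells by comparing microRNAs between the genotypes. The labels give neither the kind of allele nor the promoter of any Cre recombinase, nor the age of the mice. They also leave unsaid whether the replicates are separate mice. The p-values below therefore measure the spread between samples alone, and this spread may be technical. The genotype labels were not checked, because the knocked-out genes encode messenger RNAs and the table holds microRNAs only. No microRNA marks cDC1s alone, and the files do not pair the other identifiers with names, so neither the cell type nor other cells in the sort could be checked by markers.

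IRE1 is a sensor of the endoplasmic reticulum with an RNase domain, which processes the XBP1 mRNA into the form that encodes an active transcription factor and can cut further RNAs. A microRNA is cut from 1 arm of a hairpin, bound by an Argonaute protein, and directed to messenger RNAs mainly by its seed, bases 2 to 8. The miR-106b~25 cluster is a paralogue of the cluster that holds miR-17-5p, miR-20a-5p and miR-92a-3p. Its members with the AAAGUGC seed are known for repressing the cell-cycle inhibitor p21 and other brakes on proliferation, and those with the AUUGCAC seed for repressing the pro-apoptotic protein BIM. Mcm7, the host gene, encodes a subunit of the helicase that unwinds DNA at replication origins.

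The mature sequences below show which members can share targets and which reads could be confused. They are RefSeq sequences on GRCm38.p6, written 5′ to 3′ with the seed in capitals, and all 4 members were matched by name.
miR-106b-5p: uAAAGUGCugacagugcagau
miR-93-5p: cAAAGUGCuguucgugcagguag
miR-106b-3p: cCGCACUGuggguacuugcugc
miR-25-3p: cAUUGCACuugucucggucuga

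miR-106b-5p and miR-93-5p thus carry 1 seed, and miR-25-3p and miR-106b-3p carry a seed each of their own. Among 1679 mature mouse microRNA names in the RefSeq table, AAAGUGC was the seed of 7, AUUGCAC of 6, and CGCACUG of miR-106b-3p alone. Close relatives outside the cluster are shown next because reads of near-identical microRNAs may be shared between their rows.
miR-17-5p: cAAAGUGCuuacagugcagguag
miR-20a-5p: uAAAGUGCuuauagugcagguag
miR-106a-5p: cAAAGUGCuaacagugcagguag
miR-92a-3p: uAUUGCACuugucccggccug

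Over its 21 bases, miR-106b-5p differed at 3 from each of miR-17-5p, miR-20a-5p and miR-106a-5p, and at 5 from miR-93-5p. The substitutions from miR-106b-5p to miR-17-5p were U1C, G10U and A20G, counted from 1 at the 5′ end. miR-25-3p differed from miR-92a-3p at 3 of 21 bases, namely C1U, U14C and U18C. The sources used here do not give how reads that match several microRNAs were counted, so the levels of miR-106b-5p, miR-93-5p and miR-25-3p are uncertain by any such sharing. miR-106b-3p has no relative with its seed in the table.

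The 3 hairpins span 498 bases on the minus strand of chromosome 5, with gaps of 126 bases between Mir106b and Mir93 and 118 bases between Mir93 and Mir25. The mature sequences lie at chr5:138165787-138165807 for miR-106b-5p, chr5:138165746-138165767 for miR-106b-3p, chr5:138165574-138165596 for miR-93-5p and chr5:138165332-138165353 for miR-25-3p. All 3 hairpins are in intron 13 of the principal protein-coding transcript, which has 15 exons (GENCODE M21, where Mcm7 covers chr5:138164583-138172422). Mir93 and Mir25 also overlap an exon of a shorter retained-intron transcript, and Mir106b lies outside that transcript. The hairpin of Mir106b (chr5:138165737-138165818, minus strand) is shown because both of its arms were counted, with miR-106b-5p first and miR-106b-3p second in capitals.
Mir106b: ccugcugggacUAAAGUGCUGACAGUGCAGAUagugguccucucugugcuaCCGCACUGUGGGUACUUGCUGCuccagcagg

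**Figure D1:**
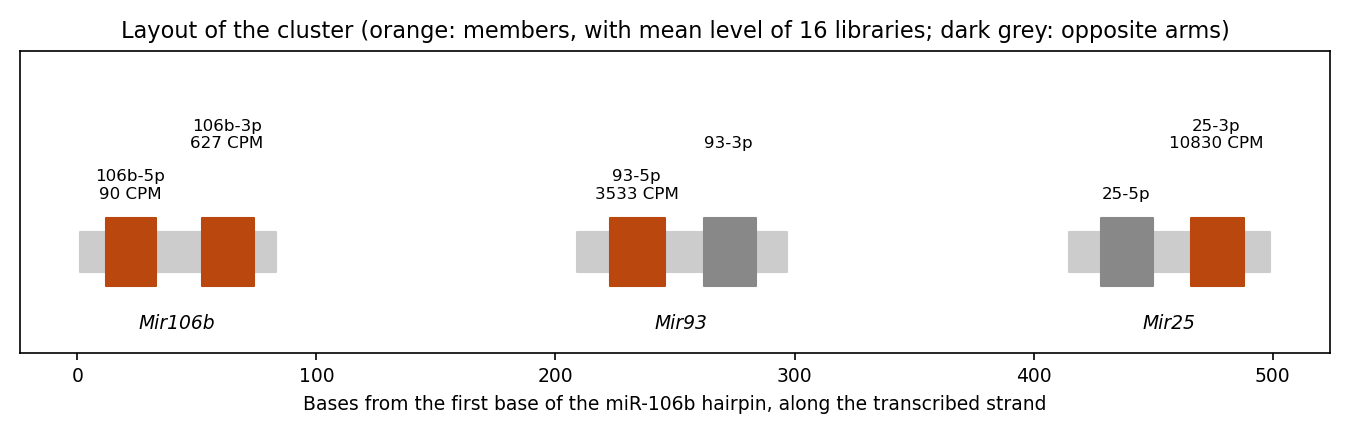
Layout of the 3 hairpins (light grey) and their mature arms along the transcribed strand, in bases from the first base of the miR-106b hairpin. Orange arms are the 4 members with their mean level over 16 libraries, from 89.9 CPM for miR-106b-5p to 10830 CPM for miR-25-3p, and dark grey arms were not analysed here.

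The depth of a library, its total microRNA count, lay between 175165 and 1403393. In the Xbp1 line the mean depth was 825800 ± 322000 for wild-type and 1066000 ± 261000 for deficient cells, and in the compound line 518600 ± 252000 for wild-type and 524000 ± 341000 for deficient cells (SD, n = 4 each). The compound line was thus sequenced less deeply than the Xbp1 line, and depth is given again beside the results it moves with. In bulk libraries like these, fewer cells of a type and less of a microRNA per cell cannot be told apart.

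Although the members come from 1 locus, their levels spanned 2 orders of magnitude, and the order was the same in each of the 16 libraries. Levels are CPM, the count divided by the TMM-scaled library size in units of 1000000. Mean CPM over the 16 libraries was 10830 for miR-25-3p, rank 14 of the 255 tested microRNAs, and 3533 for miR-93-5p, rank 29. It was 627 for miR-106b-3p, rank 67, and 89.9 for miR-106b-5p, rank 119. Ligation and amplification differ between small RNA sequences, so these levels order reads and not necessarily molecules. edgeR's biological coefficient of variation estimates the variation between libraries of a group, drawn towards that of the other tested microRNAs. It was 17.3% for miR-106b-5p, 22.5% for miR-106b-3p, 15.9% for miR-93-5p and 17.5% for miR-25-3p. All 4 values lay below the common value of 31.2% for the tested microRNAs. The SD of CPM within groups was 9.89% to 10.7% of the mean for miR-106b-5p and 13% to 27.7% for miR-106b-3p. It was 8.75% to 18.3% for miR-93-5p and 8.12% to 22% for miR-25-3p.

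The 4 members together made up 1.40% ± 0.0714 of a library's total microRNA count in wild-type and 1.58% ± 0.118 in deficient cells of the Xbp1 line, and 1.45% ± 0.2 in wild-type and 1.58% ± 0.252 in deficient cells of the compound line (SD, n = 4 each). Single libraries lay between 1.23% and 1.8%, and these shares overlapped between all groups. Of the cluster's counts, miR-25-3p took 72.5%, 75.3%, 67.9% and 70.2% in these groups, in the same order. miR-93-5p took 22.7%, 20.2%, 27.2% and 25.1%, and miR-106b-3p between 3.91% and 4.29%. For miR-106b-5p these shares were 0.733% ± 0.0805, 0.665% ± 0.104, 0.591% ± 0.0404 and 0.431% ± 0.0980.

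miR-106b-5p was the member with a called difference: it was lower in compound-deficient than in Xbp1-deficient cDC1s. Its CPM were 94.6, 120.6, 114.1 and 112.6 in Xbp1-deficient replicates 1 to 4, and 70.9, 75.0, 66.1 and 58.1 in compound-deficient replicates 1 to 4. All 4 compound-deficient libraries lay below all 4 Xbp1-deficient libraries. The means were 110.5 ± 11.1 and 67.5 ± 7.25 CPM (SD, n = 4). On the log2 scale this was a change of −0.70 (SE 0.20, 95% interval −1.12 to −0.27), or 0.617-fold. edgeR's quasi-likelihood test gave an adjusted p of 0.0458 over the 255 microRNAs tested.

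This was 1 of the 4 members, in a comparison in which 19 microRNAs, 7.45% of those tested, passed. That count was 0 to 22 when 1 library was left out, with 0 without Xbp1-deficient replicate 1 or 2 and 1 without compound-deficient replicate 2 or 3. Its split of 13 higher and 6 lower became 4 and 22 with upper-quartile scaling. The ranges of both groups were apart for 11.8% of the tested microRNAs, and for 1 of the 4 members. The counts behind the values were 98, 116, 142 and 84 reads in Xbp1-deficient cells and 66, 27, 36 and 11 reads in compound-deficient cells, so compound-deficient replicate 4 rests on 11 reads of a total of 175165. The call is close to the threshold: the adjusted p was 0.0511 to 0.117 in 14 of the 16 fits that left out 1 library, and stayed under 0.05 in 2, those without compound-line wild type replicate 3 (0.0413) or replicate 4 (0.0381). When depth (log2 total count) was a covariate, the log2 fold change was −0.57 with an adjusted p of 0.267, whereas after thinning of every library to the smallest total it was −1.04 with an adjusted p of 0.0233. The call was also lost with scaling by total counts (edgeR adjusted p = 0.0643), without the filter on low counts (0.221, over 808 microRNAs) and with limma voom (0.0703). It was lost as well with limma on the authors' log2 values (0.186, over 473 microRNAs). The same held with the 2 groups fitted alone (edgeR, 0.0753) and with a replicate block added to these (edgeR, 0.129). The call held with DESeq2 (0.00939), with DESeq2 size factors in edgeR (0.0256) and with upper-quartile scaling (0.00657). The comparison sets 2 mouse lines beside each other as well as 2 genotypes, and these cannot be told apart in it.

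The wild types of the lines can be compared without a knockout. They differed in mean depth as well, at 825800 in the Xbp1 line and 518600 in the compound line. Line and depth thus cannot be told apart between them. In the Xbp1-line wild type, miR-106b-5p was at 110.4, 101.0, 105.4 and 87.2 CPM in replicates 4, 5, 6 and 8, and its compound-line counterpart held 81.3, 72.5, 91.4 and 76.8 CPM in replicates 1 to 4. The groups overlapped through 1 library of each. Their means were 101 ± 9.99 and 80.5 ± 8.12 CPM (SD, n = 4). The log2 fold change, compound line against Xbp1 line, was −0.33 (SE 0.20, 95% interval −0.74 to 0.09, edgeR adjusted p = 0.607). With depth as a covariate it was −0.25 (edgeR adjusted p = 0.892). No microRNA passed between the wild types with edgeR (0% of those tested), where 24 had an unadjusted p under 0.05, and DESeq2 called 4.

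Against the wild type of its own line, miR-106b-5p passed in neither genotype. Its log2 fold change was 0.12 (SE 0.19, 95% interval −0.28 to 0.53, edgeR adjusted p = 0.84) in Xbp1-deficient cells, where 2.35% of tested microRNAs passed and none of the 4 members did. It was −0.25 (SE 0.21, 95% interval −0.68 to 0.19, edgeR adjusted p = 0.623) in compound-deficient cells, where 5.88% of tested microRNAs passed and again none of the members. All 4 compound-deficient libraries lay below the median of their wild type, but 1 of them, at 75.0 CPM, lay above its lowest library at 72.5 CPM. The difference of these changes, compound minus Xbp1, was −0.37 (SE 0.28, 95% interval −0.96 to 0.22, edgeR adjusted p = 0.809). No microRNA passed that test with edgeR (0%), where 26 had an unadjusted p under 0.05, and DESeq2 called 1. The lower level in compound-deficient than in Xbp1-deficient cells was thus not matched by a called difference in the response of the lines, and the interval leaves room for a difference in either direction.

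**Figure D2:**
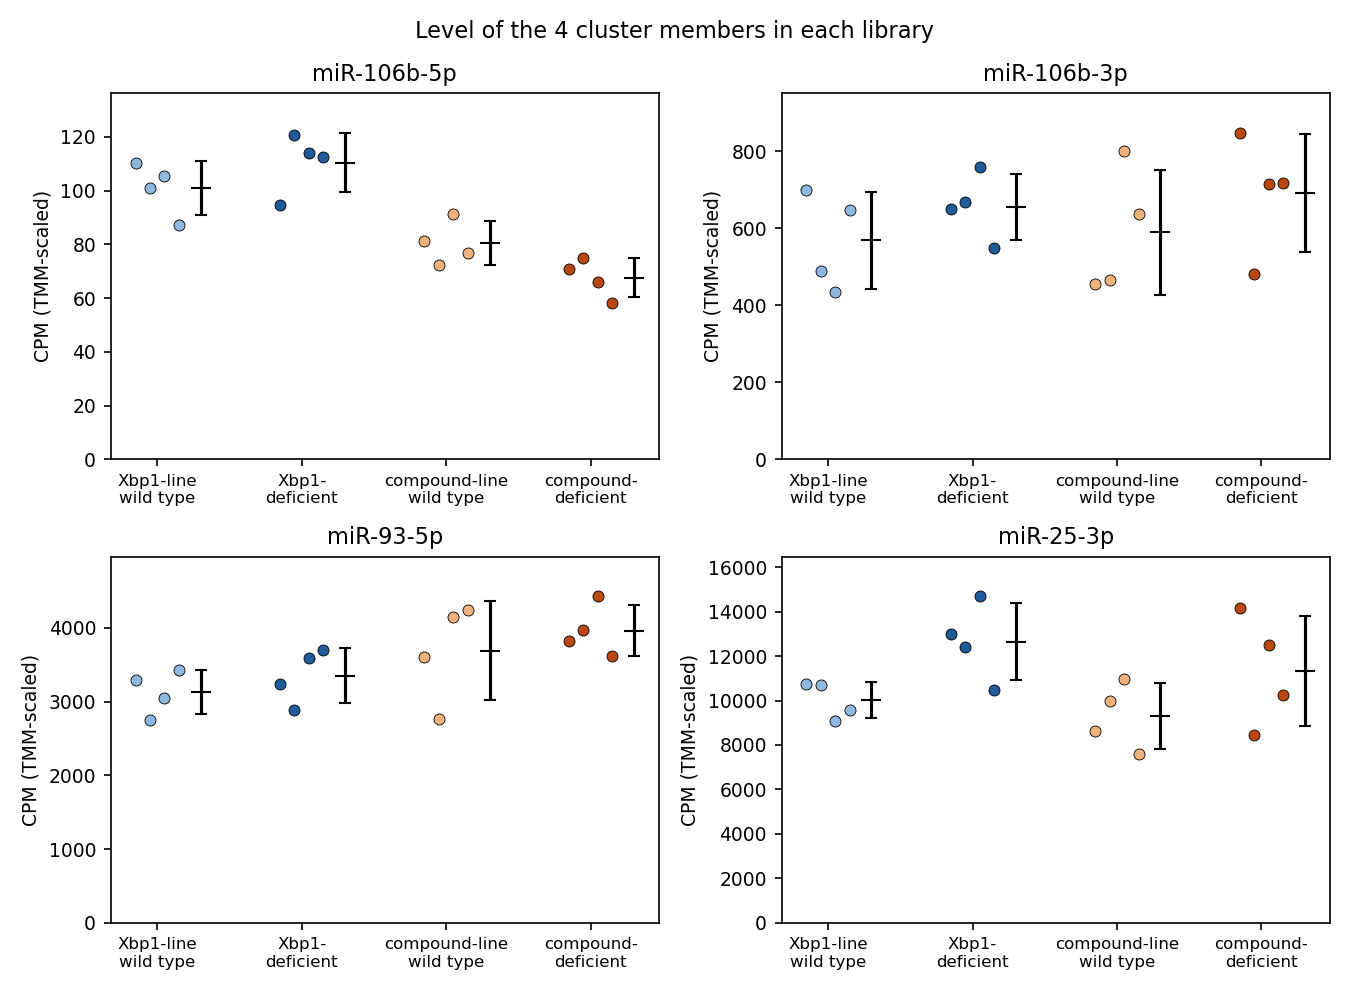
CPM of each member in every library (points) by genotype group, with the mean and SD (bars, n = 4) and axes from 0. The compound-deficient libraries of miR-106b-5p, at 58.1 to 75.0 CPM, lie below the Xbp1-deficient ones, at 94.6 to 120.6 CPM, whereas for the other 3 members these groups overlap.

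miR-93-5p, which shares the seed of miR-106b-5p, had no called difference, and its means were ordered otherwise. Its CPM were 3292, 2746, 3056 and 3425 in replicates 4, 5, 6 and 8 of the Xbp1-line wild type, and 3234, 2886, 3586 and 3705 in Xbp1-deficient replicates 1 to 4. In the compound line they were 3607, 2768, 4145 and 4242 in wild-type replicates 1 to 4, and 3818, 3976, 4430 and 3615 in compound-deficient replicates 1 to 4. The groups overlapped within each line and in the comparisons of deficient with deficient and wild-type with wild-type cells, and the widest spread was in the compound-line wild type, whose replicate 2 was low.

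Means of miR-93-5p were 3130 ± 298, 3353 ± 370, 3690 ± 675 and 3960 ± 347 CPM (SD, n = 4) in that order. The log2 fold change was 0.10 (SE 0.14, 95% interval −0.19 to 0.39, edgeR adjusted p = 0.806) in Xbp1-deficient cells, and 0.10 (SE 0.14, 95% interval −0.19 to 0.40, edgeR adjusted p = 0.783) in compound-deficient cells. Between the deficient genotypes it was 0.24 (SE 0.14, 95% interval −0.05 to 0.53, edgeR adjusted p = 0.413), the opposite sign to miR-106b-5p. The wild types differed by as much, 0.24 (SE 0.14, 95% interval −0.06 to 0.53, edgeR adjusted p = 0.602). The estimates of the 2 members with the AAAGUGC seed thus had opposite signs in both comparisons between lines, except with upper-quartile scaling, under which miR-93-5p was at −0.002 between the deficient genotypes. The difference between these members was not tested. Against the own wild type the sign of miR-93-5p also turned with the scaling, to −0.007 in Xbp1-deficient cells with total counts and to −0.16 in compound-deficient cells with upper quartiles.

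miR-106b-3p, the opposite arm of miR-106b-5p, had the highest biological coefficient of variation of the 4 members in the fit over all groups, 22.5%. Its CPM were 700.4, 490.4, 436.0 and 649.1 in replicates 4, 5, 6 and 8 of the Xbp1-line wild type, and 650.7, 668.7, 758.4 and 549.4 in Xbp1-deficient replicates 1 to 4. In the compound line they were 455.3, 465.9, 800.3 and 638.4 in wild-type replicates 1 to 4, and 848.7, 480.7, 716.3 and 718.7 in compound-deficient replicates 1 to 4. In each line the groups overlapped, and 3 of the 4 deficient libraries lay above the median of their wild type.

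The log2 fold change of miR-106b-3p was 0.21 (SE 0.21, 95% interval −0.24 to 0.66, edgeR adjusted p = 0.73) in Xbp1-deficient cells and 0.23 (SE 0.22, 95% interval −0.23 to 0.68, edgeR adjusted p = 0.686) in compound-deficient cells. Between the deficient genotypes, where miR-106b-5p was lower, miR-106b-3p stood at a log2 difference of 0.08 (SE 0.21, 95% interval −0.37 to 0.53, edgeR adjusted p = 0.892). Between the wild types it was 0.06 (SE 0.22, 95% interval −0.39 to 0.51, edgeR adjusted p = 0.956). The interval between the deficient genotypes overlaps that of miR-106b-5p, −1.12 to −0.27. With upper-quartile scaling the sign turned, to −0.039 within the compound line and −0.17 between the deficient genotypes.

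Since both arms are cut from 1 hairpin and counted in the same library, their ratio needs no scaling. The 3p arm was the more abundant in all 16 libraries, by 4.14-fold to 12.4-fold. The 5p arm made up 13.6%, 17.1%, 19.5% and 11.8% of miR-106b reads in replicates 4, 5, 6 and 8 of the Xbp1-line wild type, and 12.7%, 15.3%, 13.1% and 17.0% in Xbp1-deficient replicates 1 to 4. In the compound line it made up 15.2%, 13.5%, 10.3% and 10.7% in wild-type replicates 1 to 4, and 7.71%, 13.5%, 8.45% and 7.48% in compound-deficient replicates 1 to 4. The 3 lowest of all 16 libraries were thus compound-deficient, while compound-deficient replicate 2 lay among the others.

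The precision of these shares follows the depth. The 95% Wilson interval was 11.2% to 15.2% for Xbp1-deficient replicate 3, with 142 reads of the 5p arm, and 4.23% to 12.9% for compound-deficient replicate 4, with 11 reads. The labels mention no molecular identifiers, so these intervals cover counting error only and not copies made by PCR. Group means were 15.5% ± 3.4 for wild-type and 14.5% ± 2.01 for deficient cells of the Xbp1 line, and 12.4% ± 2.31 for wild-type and 9.29% ± 2.84 for deficient cells of the compound line (SD, n = 4 each).

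The log2 ratio of 5p to 3p counts differed by −0.74 between the deficient genotypes (means −3.30 ± 0.437 in compound-deficient and −2.56 ± 0.232 in Xbp1-deficient cells). The exact two-sided permutation p was 0.0857, or 0.267 after Benjamini-Hochberg adjustment over 4 comparisons. Against the own wild type it differed by −0.48 in compound-deficient cells (exact permutation p = 0.143, adjusted 0.267) and by −0.10 in Xbp1-deficient cells (exact permutation p = 0.657, adjusted 0.657). The wild types differed by −0.36 (exact permutation p = 0.2, adjusted 0.267). The smallest p that 4 against 4 libraries can give is 0.0286. After adjustment over the 4 comparisons, neither 1 nor 2 comparisons at that value could fall under 0.05. The ratio of the arms passed in none of the 4, but a difference in only 1 or 2 of them could not have passed. The test therefore cannot decide whether the called difference of miR-106b-5p was larger than that of miR-106b-3p. Without compound-deficient replicate 2, the library that stood apart, the difference between the deficient genotypes was −0.96 (exact permutation p = 0.0286, the smallest that 3 against 4 libraries can give, adjusted 0.114). This fit was picked because of that library's value. The libraries that remain do not overlap between the groups, so the p had to be the smallest possible and carries no evidence.

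**Figure D3:**
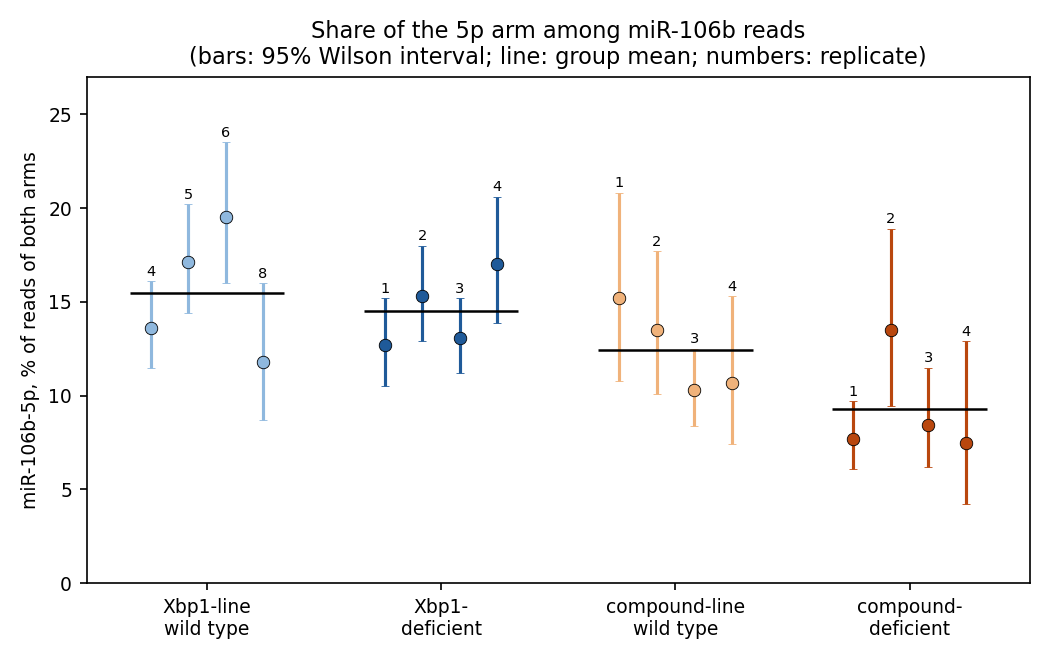
Percent of miR-106b reads from the 5p arm in each library (points, numbered by replicate) with 95% Wilson intervals (bars) and the group mean (horizontal line). Compound-deficient replicates 1, 3 and 4 lie at 7.48% to 8.45%, and replicate 2 at 13.5%, within the range of the compound-line wild type.

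miR-25-3p, the most abundant member, had higher means in both deficient genotypes than in their wild types, and in neither did the difference pass. Its CPM were 10735, 10678, 9098 and 9581 in replicates 4, 5, 6 and 8 of the Xbp1-line wild type, and 13009, 12415, 14695 and 10487 in Xbp1-deficient replicates 1 to 4. All 4 Xbp1-deficient libraries lay above the wild-type median, and 1 of them lay within the wild-type range. Means were 10023 ± 814 and 12651 ± 1740 CPM (SD, n = 4). The log2 fold change was 0.34 (SE 0.16, 95% interval 0.01 to 0.66), with an edgeR p of 0.0444 that became 0.298 after adjustment.

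In the compound line, miR-25-3p was at 8639, 9961, 10985 and 7593 CPM in wild-type replicates 1 to 4, and at 14147, 8471, 12491 and 10236 CPM in compound-deficient replicates 1 to 4. The groups overlapped, with compound-deficient replicate 2 below the wild-type median. The means were 9295 ± 1490 and 11336 ± 2490 CPM (SD, n = 4), and the log2 fold change was 0.29 (SE 0.16, 95% interval −0.04 to 0.61, edgeR adjusted p = 0.347). The difference between the lines' changes was −0.05 (SE 0.22, 95% interval −0.51 to 0.41, edgeR adjusted p = 0.989).

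Averaged over both lines, the change of miR-25-3p was 0.31 on the log2 scale (SE 0.11, 95% interval 0.08 to 0.54), with an edgeR p of 0.011 and an adjusted p of 0.0971. In this comparison 19 microRNAs (7.45%) passed and none of the members did. DESeq2, an alternative test, gave 0.32 with an adjusted p of 0.0309, and it was the only alternative in which this change passed. With total counts the averaged change was 0.198 (edgeR adjusted p = 0.317), and with upper-quartile scaling 0.226 (edgeR adjusted p = 0.244). On the authors' log2 values it was 0.335 (limma adjusted p = 0.343, over 473 microRNAs). The averaged change of the other members was 0.22 for miR-106b-3p (edgeR adjusted p = 0.44), 0.10 for miR-93-5p (edgeR adjusted p = 0.627) and −0.06 for miR-106b-5p (edgeR adjusted p = 0.882). Between the deficient genotypes miR-25-3p differed by −0.16 (SE 0.16, 95% interval −0.48 to 0.17, edgeR adjusted p = 0.641), and between the wild types by −0.11 (SE 0.16, 95% interval −0.44 to 0.22, edgeR adjusted p = 0.934).

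Over the members together, the median log2 fold change was 0.17 in Xbp1-deficient and 0.16 in compound-deficient cells against the own wild type. Over all 255 tested microRNAs it was −0.07 and 0.04. Groups that did not overlap in CPM were found for 11.8% of tested microRNAs in the Xbp1 line, 9.8% in the compound line and 4.31% between the wild types, and for none of the members in these 3 comparisons. The comparisons share libraries (each deficient group enters both its own line's comparison and the one between genotypes), so their values for a member are not independent.

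**Figure D4:**
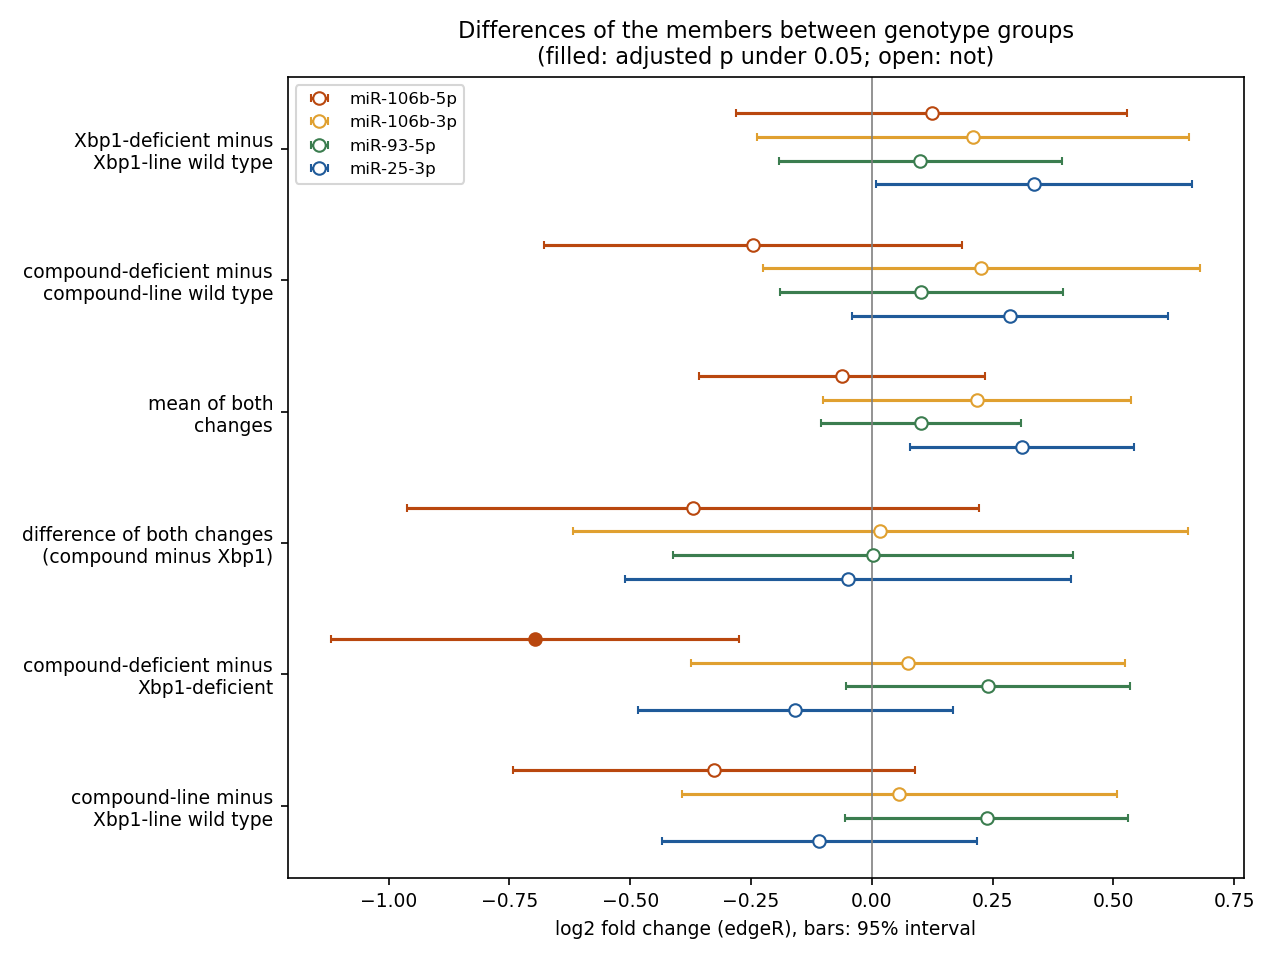
log2 fold change of each member (points) with 95% intervals (bars) in 6 comparisons fitted by edgeR to all 16 libraries. The filled point, miR-106b-5p in compound-deficient against Xbp1-deficient cells at −0.70, is the only one with an adjusted p under 0.05, and the intervals of miR-25-3p in Xbp1-deficient cells (0.01 to 0.66) and averaged over lines (0.08 to 0.54) lie above 0.

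The levels of 2 members moved with sequencing depth, and depth differed between the groups. Over the 16 libraries the log2 CPM of miR-106b-5p and the log2 total count had a Pearson r of 0.742 (permutation p = 0.00109, adjusted over 5 relations 0.00545) and a Spearman rho of 0.632 (permutation p = 0.0102, adjusted 0.0254). The permutations, here and for the other members, ran over all libraries regardless of group. Their p-values thus also take in differences between the groups, and the values of r within lines or groups were not tested. Without the 2 libraries farthest from the median depth, compound-deficient replicate 4 and compound-line wild type replicate 4, r was 0.614. It was 0.596 over the 8 libraries of the Xbp1 line, 0.527 over the 8 of the compound line and 0.579 after subtraction of the group means. The shallow groups are also those of lower miR-106b-5p. As given above, the called difference was smaller and lost with depth as a covariate, and larger and kept after thinning to equal totals.

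For miR-25-3p, r was 0.672 (permutation p = 0.00448, adjusted 0.0112) and rho 0.797 (permutation p = 0.00029, adjusted 0.00145). r was 0.748 without the same 2 libraries, 0.733 within the Xbp1 line, 0.617 within the compound line and 0.740 after subtraction of the group means. Within each line and after subtraction of the group means r was thus positive, as it was for miR-106b-5p, and these values were not tested. With depth as a covariate, the averaged change of miR-25-3p was 0.27 with an edgeR adjusted p of 0.0621. For miR-106b-3p r was 0.229 (permutation p = 0.393, adjusted 0.393) and rho 0.374 (permutation p = 0.156, adjusted 0.195), and r rose to 0.519 without the 2 libraries. For miR-93-5p r was −0.302 (permutation p = 0.256, adjusted 0.32) and rho −0.382 (permutation p = 0.146, adjusted 0.195), with r at −0.216 without them. The arms' log2 ratio had an r of 0.332 (permutation p = 0.209, adjusted 0.32) and a rho of 0.171 (permutation p = 0.526, adjusted 0.526), and r was −0.001 without the 2 libraries.

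**Figure D5:**
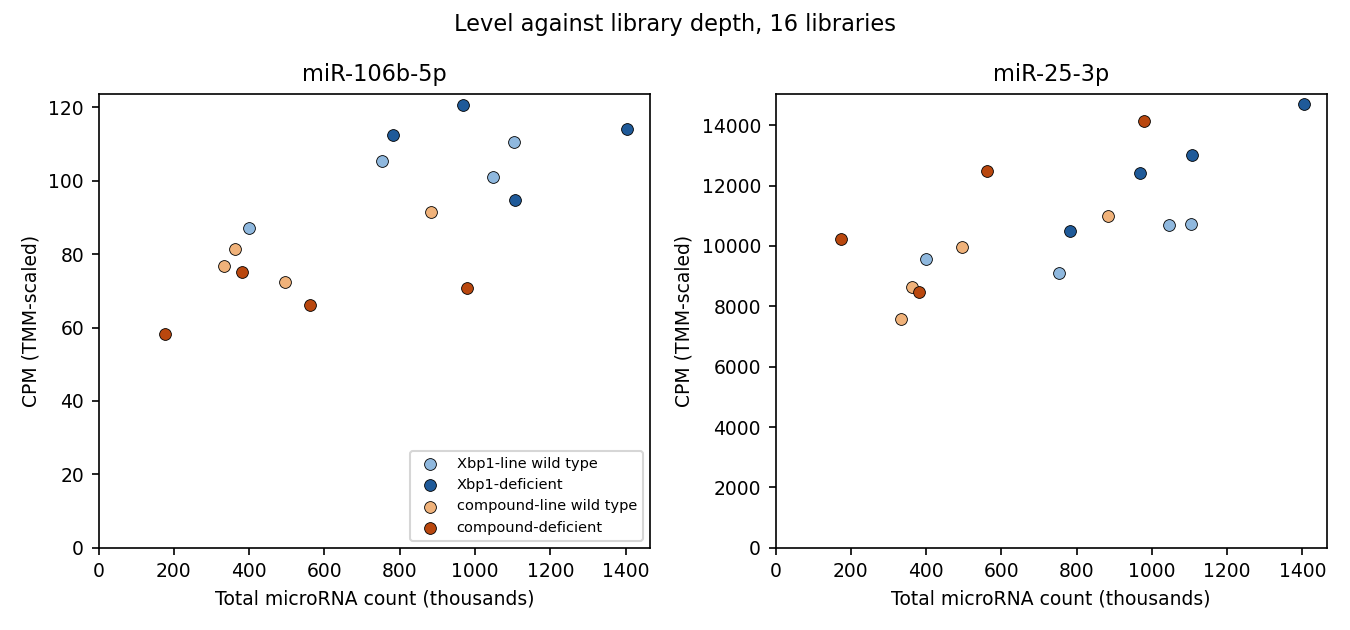
CPM of miR-106b-5p (left) and miR-25-3p (right) against the total microRNA count, with 1 point per library coloured by group and the level axis from 0. Both rise with depth (r = 0.742 and r = 0.672 on log2 scales), and compound-deficient replicate 4, the shallowest library at 175165 counts, has the lowest miR-106b-5p.

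The members were not uniformly correlated with each other. Their hairpins are annotated within 1 intron of the principal Mcm7 transcript, and no host transcript was measured here. As a description over the 16 libraries, which share scaling and depth, the Pearson r of log2 CPM was 0.631 for miR-106b-3p and miR-25-3p and 0.447 for miR-106b-3p and miR-93-5p. It was −0.087 for the arms miR-106b-5p and miR-106b-3p, −0.438 for miR-106b-5p and miR-93-5p, 0.227 for miR-106b-5p and miR-25-3p, and −0.082 for miR-93-5p and miR-25-3p. After subtraction of the group means these were 0.614, 0.421, 0.049, 0.211, 0.097 and −0.121. The pair of highest r was thus the 3p arms of the first and last hairpins, and for the arms of 1 hairpin r was near 0. miR-106b-5p rests on 11 to 142 reads per library, so counting error can bring its r with other members towards 0. Whether the arms vary together can therefore not be read from that value. The count of miR-25-3p was 1.79 to 4.3 times that of miR-93-5p in single libraries.

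For each member, the 2 tested microRNAs of highest r are given next, and none of them was another member. A highest r picked from all 255 tested microRNAs tends to exceed the highest among 3 members through selection alone. This order is thus a description and carries no conclusion about the cluster. The microRNAs are given by identifier alone, and whether the opposite arms of miR-93 or miR-25 are among them is not known here. The closest of the 255 was MIMAT0003781 for miR-106b-5p (r = 0.843 over 16 libraries, 0.773 after subtraction of the group means), followed by MIMAT0000667 (0.803 and 0.374). For miR-106b-3p they were MIMAT0002889 (0.725 and 0.689) and MIMAT0000122 (0.715 and 0.81), and for miR-93-5p MIMAT0000515 (0.76 and 0.742) and MIMAT0000648 (0.73 and 0.527). For miR-25-3p they were MIMAT0000537 (0.906 and 0.857) and MIMAT0000524 (0.825 and 0.787). With the log2 total count, the 2 closest to miR-106b-5p had an r of 0.789 and 0.81, those closest to miR-106b-3p 0.46 and 0.23, those closest to miR-93-5p −0.683 and −0.647, and those closest to miR-25-3p 0.591 and 0.598.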

How the data were processed

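Small RNA libraries of sorted splenic cDC1s, from 5000 to 50000 cells each per the labels' protocols, were prepared with a TruSeq small RNA kit. The submitters' processing notes list Bowtie 1.1.2, cutadapt 1.8.1, limma 3.42.2 and FastQC 0.11.3, and as builds mm10 and GRCm38, with no role for any. The authors deposited raw counts for 853 microRNAs, 45 of them at 0 throughout, and log2 values for 473, which matched a recomputed TMM log2 CPM to within 4.97e-14. Counting of multiply matching reads is not given in the sources used here.

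Groups came from the sample descriptions. edgeR 4.0.16 (R 4.3.3) was fitted to the deposited counts of all 16 libraries: TMM, filterByExpr (minimum count 10; 255 kept, at least 99.9% of each library's counts), 4 group means, quasi-likelihood F tests, Benjamini-Hochberg adjustment over the 255, threshold 0.05. Tests were two-sided. Log2 CPM used a prior count of 1 and arm ratios 0.5. The 4 arm comparisons took exact permutations, and the 5 depth relations 100000. Alternatives used DESeq2 1.42.0, limma 3.58.1, other scalings, filters, thinning and depth. Steps were tested on simulated data. No 2 libraries of a group agreed within counting noise (chi-square per degree of freedom at least 15.7), and each counts once.

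The members and lists were chosen with earlier results of these data known. The naming rule took the 4 members, the opposite arms of miR-93 and miR-25, the seed families and paralogous clusters, and the 2 microRNAs most like each member. None of the 853 identifiers is paired with a name in the tables used, so the opposite arms, 3 lists and 16 marker microRNAs of other cells matched 0 rows and were not tested.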

Additional observations from a re-analysis of the deposited data

Results flagged for a closer look

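In compound-deficient cells, replicate 2 stood apart in the ratio of the miR-106b arms. Its log2 ratio of 5p to 3p counts was −2.66, and the nearest of the other 3 libraries was at −3.42, a gap of 0.834 of the group's range, above Dixon's 95% critical value for 4 samples. It was 1 of 24 groups of values checked, and chance alone places about 1 in 20 past that value. Behind the ratio were 27 reads of the 5p arm and 173 of the 3p arm.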

How the results depend on the processing

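Apart from fits without single libraries, 372 values were computed under alternatives. Of these, 307 kept both direction and side of the threshold or, for counts and shares, a size close to the main one. Another 27 turned sign, 30 counts moved by more than 1.5 times, 7 lost a call and 1 gained one. The difference of miR-106b-5p between the deficient genotypes kept its direction in every alternative run. It passed with DESeq2 size factors (−0.75, adjusted p = 0.0256), upper-quartile scaling (−0.93, 0.00657), DESeq2 (−0.75, 0.00939) and thinning to the smallest total (−1.04, 0.0233). It did not pass with total counts (−0.65, adjusted p = 0.0643), no filter (−0.86, 0.221 over 808 microRNAs) or limma voom (−0.66, 0.0703). Nor did it pass with limma on the authors' log2 values (−0.74, 0.186 over 473 microRNAs) or the 2 groups fitted alone (−0.70, 0.0753). With depth as a covariate it did not pass either (−0.57, 0.267). In each fit where it did not pass, 0 members were called. The averaged change of miR-25-3p passed with DESeq2 alone (0.32, adjusted p = 0.0309), where 1 member was called.

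No alternative moved any other member past the threshold, but small changes turned sign. The difference of the lines' changes turned negative for miR-106b-3p and miR-93-5p with DESeq2 size factors (−0.027 and −0.033), upper-quartile scaling (−0.36 and −0.39), no filter (−0.049 and −0.05), DESeq2 (−0.028 and −0.032), the authors' log2 values (−0.068 and −0.063) and thinning (−0.095 and −0.11), and for miR-106b-3p with voom (−0.003). With total counts miR-93-5p was at −0.007 in Xbp1-deficient cells and −0.003 on average. With upper-quartile scaling the compound-line changes were −0.039 for miR-106b-3p and −0.16 for miR-93-5p, the differences between deficient genotypes −0.17 and −0.002, and miR-25-3p between wild types was 0.043. Between the deficient genotypes miR-106b-3p was at −0.087 without a filter, −0.002 with the authors' log2 values and −0.016 after thinning, and between wild types at −0.039 without a filter. With depth as a covariate miR-25-3p was at 0.088 for the difference of changes, 0.13 between deficient genotypes and 0.039 between wild types.

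Counts of called microRNAs were 6 in the Xbp1 line, 15 in the compound line, 19 averaged, 0 for the difference, 19 between deficient genotypes and 0 between wild types. DESeq2 called 18, 24, 33, 1, 32 and 4. Without a filter edgeR called 15 in the Xbp1 line, 30 averaged, 2 for the difference and 14 between wild types. With limma on the authors' log2 values they were 3, 1 and 0 for the Xbp1 line, the compound line and the deficient genotypes. With the compared groups alone they were 11, 6, 7 and 2 for the Xbp1 line, the compound line, the deficient genotypes and the wild types. With upper-quartile scaling they were 24 in the compound line and 3 for the difference, and with depth as a covariate 3 between the deficient genotypes. Upper-quartile scaling moved the median of all tested microRNAs by 0.13 in the Xbp1 line, −0.28 in the compound line, −0.39 for the difference, −0.24 between deficient genotypes and 0.15 between wild types, and total counts by −0.11, −0.12 and −0.11 in the Xbp1 line, the compound line and on average. The calls between deficient genotypes, 13 higher and 6 lower, were 4 and 22 under upper-quartile scaling, 14 and 1 under total counts, and 12 of each under DESeq2 size factors. In the compound line 9 higher and 6 lower became 8 and 11 with total counts and 3 and 21 with upper-quartile scaling, on average 8 and 11 became 7 and 20 with total counts and 7 and 18 with upper-quartile scaling, and in the Xbp1 line 1 and 5 became 2 and 3 under upper-quartile scaling and 2 and 5 under DESeq2 size factors.

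Without 1 library at a time, counts ranged from 2 to 9 in the Xbp1 line (under 4 without Xbp1-line wild type replicates 6 or 8 or Xbp1-deficient replicate 3), 5 to 23 in the compound line (23 without compound-line wild type replicate 4, 9 and 5 without compound-deficient replicates 2 and 3), 14 to 23 on average, 0 to 22 between deficient genotypes and 0 to 2 between wild types (1 without Xbp1-line wild type replicate 5, 2 without its replicate 6 or compound-deficient replicates 1 or 4). Between the deficient genotypes the count was 12 without Xbp1-line wild type replicates 4 or 6, 0, 0 and 9 without Xbp1-deficient replicates 1, 2 and 3, and 1, 1 and 7 without compound-deficient replicates 2, 3 and 4. The number of members called there was 0 to 1, and miR-106b-5p ranged from −0.82 to −0.65. For the difference of changes miR-106b-3p ranged from −0.13 to 0.21, miR-93-5p from −0.12 to 0.064 and miR-25-3p from −0.19 to 0.041. miR-106b-3p ranged from −0.044 to 0.15 between deficient genotypes and from −0.13 to 0.18 between wild types, miR-93-5p from −0.013 to 0.16 in the compound line, and the arms' ratio in the Xbp1 line from −0.24 to 0.042.

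Replicate numbers are shared by 4 pairs in the compound line and 4 between the deficient genotypes. Same-numbered libraries deviated together with an r of −0.26 to 0.262 and −0.069 to 0.102, and 2 of 4 and 1 of 4 correlated best with their own number, so the numbers were not taken as pairs. With a replicate block and the compared groups fitted alone, 4 microRNAs were called in the compound line and 9 between the deficient genotypes, 0 of them members, with miR-106b-5p at −0.69 (adjusted p = 0.129). The same groups alone without the block gave 6 and 7 calls and an adjusted p of 0.0753 for miR-106b-5p, so the member's call was already lost before the block was added. The groups of the Xbp1 line share 1 number, so no block could be fitted there. The cluster's share with the opposite arms of miR-93 and miR-25 was not run, because their rows could not be matched. Depth limits miR-106b-5p most, at 11 to 142 reads per library.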
